A study of Mus musculus with 14 samples.

Results

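The 34 genes described here encode the enzymes of the citric acid cycle, the pyruvate dehydrogenase complex that feeds it, and the glutamate, transaminase, malic enzyme, citrate lyase and carrier genes linked to it. They were listed by name, and all 34 were found among the 21887 protein-coding genes of the RefSeq table of mouse assembly GRCm38.p6 (mm10 coordinates). For each gene, peaks of open chromatin were taken from the gene body and 20 kb either side, and were divided into gene-end peaks, within 1 kb of either edge of a gene, and regions away from the ends of all protein-coding genes. The values describe accessible chromatin and not transcript or metabolite levels. In bulk libraries, fewer cells with an open site and less opening per cell cannot be told apart.

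Chromatin accessibility was profiled by ATAC-seq, in which Tn5 transposase inserts adapters into open DNA, in mouse neural stem cells. There were 14 libraries in 7 groups of 2. EV cells carried an empty vector, and their vehicle is given as DMSO for replicate 1 and as PBS for replicate 2. ZR cells carried the ZFTA-RELA fusion, an oncogenic fusion protein of supratentorial ependymoma, with a PBS/Vehicle label. ZR_DMSO cells are fusion cells named for DMSO in their titles and labelled PBS/Vehicle in their treatment field. ZR_GSK343 cells are fusion cells given 10 µM of the EZH2 inhibitor GSK343, for 96 h per the labels' protocols. ZR_dmCitra cells are fusion cells labelled with 10 mM citraconate, described as an ACOD1 antagonist. The second library series held DMSO_50K, labelled empty vector and DMSO/Vehicle, and Citraconate_50K, labelled ZFTA-RELA and 10 mM citraconate, so that treatment and cell line cannot be told apart in that comparison. Citraconate exposure was 24 h or 48 h, not assigned to libraries. No age, clone or number of cultures is given for the lines, and no label says that the replicates were separate cultures.

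In the citric acid cycle, acetyl-CoA from pyruvate or fatty acids joins oxaloacetate to form citrate, which is oxidised stepwise through isocitrate, 2-oxoglutarate, succinyl-CoA, succinate, fumarate and malate. Glutamate enters as 2-oxoglutarate, citrate leaves the mitochondrion through its carrier and is cleaved to acetyl-CoA for lipid synthesis and histone acetylation, and 2-oxoglutarate is a co-substrate of histone and DNA demethylases while succinate and fumarate inhibit them. ACOD1 draws on the same pathway by converting cis-aconitate, the intermediate of aconitase, to itaconate.

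Promoter sequences of 7 members are shown as examples of different gene-end results. Other members with a call, such as Ogdh, Gpt2 and Sdhd, are not shown. Fh1 had a very high-ranking peak in all 14 lists, Slc25a10 had none in any, Dld and Suclg1 were called in both comparisons with ZR_DMSO, and Dlst, Idh3b and Dlat were called in the GSK343 comparison alone among those 2. Each line holds the 250 bases before the first RefSeq start, 5′ to 3′ on the gene's strand (GRCm38.p6). Capitals mark matches to the searched motifs.
Fh1: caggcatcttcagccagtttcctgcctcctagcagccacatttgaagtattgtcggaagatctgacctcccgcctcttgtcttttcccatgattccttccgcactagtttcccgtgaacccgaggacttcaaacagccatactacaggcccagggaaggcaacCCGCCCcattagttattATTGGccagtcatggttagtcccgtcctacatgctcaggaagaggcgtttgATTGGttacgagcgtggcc
Dld: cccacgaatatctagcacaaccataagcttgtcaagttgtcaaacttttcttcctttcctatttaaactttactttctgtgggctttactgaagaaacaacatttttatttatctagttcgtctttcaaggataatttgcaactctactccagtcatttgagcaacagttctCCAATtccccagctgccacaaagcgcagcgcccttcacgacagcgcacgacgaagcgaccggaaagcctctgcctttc
Suclg1: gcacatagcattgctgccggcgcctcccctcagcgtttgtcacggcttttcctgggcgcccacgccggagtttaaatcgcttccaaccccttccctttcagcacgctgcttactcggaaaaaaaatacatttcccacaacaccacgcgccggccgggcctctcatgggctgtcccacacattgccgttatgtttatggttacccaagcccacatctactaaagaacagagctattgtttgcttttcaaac
Dlst: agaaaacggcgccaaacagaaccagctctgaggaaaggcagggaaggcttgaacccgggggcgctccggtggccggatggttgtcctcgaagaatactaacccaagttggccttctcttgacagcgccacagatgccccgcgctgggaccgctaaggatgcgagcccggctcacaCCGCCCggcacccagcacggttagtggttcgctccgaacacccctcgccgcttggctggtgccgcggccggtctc
Idh3b: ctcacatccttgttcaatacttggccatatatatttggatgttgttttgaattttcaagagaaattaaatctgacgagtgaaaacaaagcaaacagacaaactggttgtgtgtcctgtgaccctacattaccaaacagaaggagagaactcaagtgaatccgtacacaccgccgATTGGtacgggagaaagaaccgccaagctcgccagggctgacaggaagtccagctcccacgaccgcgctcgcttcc
Dlat: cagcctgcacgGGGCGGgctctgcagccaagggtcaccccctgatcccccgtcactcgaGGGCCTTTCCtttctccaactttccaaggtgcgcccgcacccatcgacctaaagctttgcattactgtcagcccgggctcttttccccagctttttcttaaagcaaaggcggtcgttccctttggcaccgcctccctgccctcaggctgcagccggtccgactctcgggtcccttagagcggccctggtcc
Slc25a10: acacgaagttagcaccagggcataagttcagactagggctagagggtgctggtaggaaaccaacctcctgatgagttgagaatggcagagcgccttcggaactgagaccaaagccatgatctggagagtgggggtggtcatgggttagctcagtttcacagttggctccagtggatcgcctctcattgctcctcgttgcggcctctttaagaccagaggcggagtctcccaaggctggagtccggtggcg
These windows lie at chr1:175625636-175625885 (minus strand) for Fh1, chr12:31351472-31351721 (minus strand) for Dld, chr6:73248255-73248504 (plus strand) for Suclg1, chr12:85110583-85110832 (plus strand) for Dlst, chr2:130284452-130284701 (minus strand) for Idh3b, chr9:50659781-50660030 (minus strand) for Dlat and chr11:120491587-120491836 (plus strand) for Slc25a10.

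RefSeq promoter entries, from 250 bases before to 50 bases after the start, were matched for 30 of the 34 members, with none used for Sdhc, Idh3a, Gls2 and Me2. Only the 250 bases before the start were searched, and these are the windows meant below. The members' windows had a median GC content of 61.4% against 55.2% over 17492 protein-coding promoters, and a median CpG observed-to-expected ratio of 0.791 against 0.537. The Sp/KLF motif GGGCGG, searched on both strands like the others, was in 18 member windows (60%, against 42.7% of all promoters), and the NFY motif CCAAT in 15 (50%, against 36.5%). The ETS motif CCGGAAG was in 3 (10%, against 9.15%), the NRF1 half-site TGCGCA in 4 (13.3%, against 8.3%) and the YY1 motif AAGATGG in 1 (3.33%, against 4.08%). An NF-kB pattern of GGG, 2 free bases and TTTCC was in 2, those of Dlat and Sdhb (6.67%, against 1.39%). No listed motif contains another, although matches on the same promoter can overlap. These matches are letters in a window and not measured binding.

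The libraries differed in list length. Between 12554 and 60472 peaks were deposited per library, and ZR_DMSO had the shortest lists on average (16848.5 ± 6073.34 peaks, SD, n = 2). To set libraries side by side, each list was shortened to the 12390 peaks with the highest −log10 q, which left a gene-end peak at 23.5% to 41.4% of all protein-coding genes. In the deposited lists, 7 and 8 of 10 neural stem markers had a gene-end peak in the EV libraries and 1 to 6 in the others, with Vim in all 14, Sox2 and Sox1 in the 2 EV lists only, and Pax6 in none. The DMSO_50K lists, labelled empty vector, went against that label: they lacked the Sox2 and Sox1 peaks, and held a peak at 79.5% and 85.2% of the 8360 regions near genes that were gained in ZR over EV, but at 20.4% and 25% of the 6997 lost ones. These are deposited lists, of 52771 and 60472 peaks. The lost share was 0.543% to 10.9% in the ZR_DMSO, ZR_GSK343, ZR_dmCitra and Citraconate_50K lists, lower than in DMSO_50K. At 12390 peaks, DMSO_50K held 22.8% and 24.4% of the gained regions and 1.3% and 1.61% of the lost ones. Gene-end peaks were found at 0 to 3 of 6 microglial, 0 to 1 of 4 endothelial, 0 to 2 of 4 oligodendrocyte and 0 to 3 of 4 neuronal markers, with Cx3cr1, Csf1r, Aif1, Pecam1, Cldn5, Mbp and Mog at none in any list. The part of these differences in the results below was not tested.

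At equal length, most members had a gene-end peak in every group. The number was 27 and 27 of 34 in the EV libraries, 26 and 26 in ZR, 18 and 21 in ZR_DMSO, 26 and 31 in ZR_GSK343, 25 and 25 in ZR_dmCitra, 25 and 25 in DMSO_50K, and 28 and 27 in Citraconate_50K. The ZR_DMSO libraries stood below all 12 others and did not overlap with them. The same held over all protein-coding genes, of which 23.5% and 24.3% had a gene-end peak in ZR_DMSO and 26.7% to 41.4% in the 12 others. In the lists as deposited, the counts were 18 and 27 in ZR_DMSO, 27 and 32 in ZR_GSK343, and 31 or 32 in each other library. Of the 34 members, 15 (44.1%) had a gene-end peak in all 14 equal-length lists, against 15.1% of protein-coding genes, and 3 had one in none (8.82%, against 51% of genes).

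**Figure D1:**
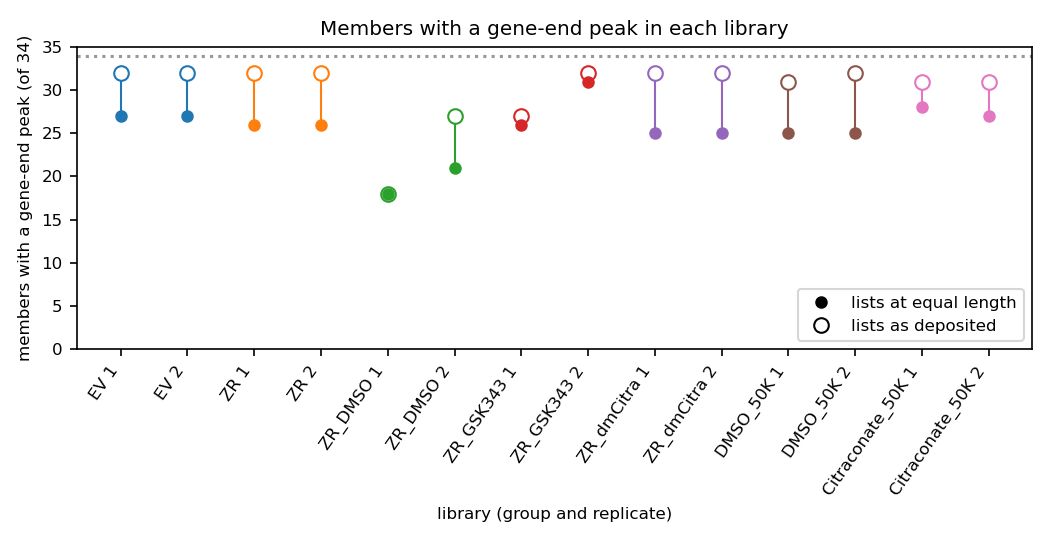
Number of the 34 members with a gene-end peak in each library, with filled points for lists shortened to equal length, open points for lists as deposited, and a dotted line at 34. Only the ZR_DMSO libraries, at 18 and 21, lie below 25 at equal length, and their shares over all protein-coding genes, 23.5% and 24.3%, were also the lowest.

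Among the members whose start is known, all 366 best gene-end peaks lay at the start of the gene, with a median summit distance of −15.5 bp from the start, and 94.5% of summits lay within 250 bp of it. The members differed in how high these peaks ranked. Ranks are given as percentiles by −log10 q within each library's own deposited list, which describe standing in that list and, because lists differ in length, show no change between libraries.

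The pyruvate dehydrogenase complex converts pyruvate to acetyl-CoA. Pdhb, its E1 beta subunit, ranked between the 90.99 and 99.51 percentiles in all 14 lists, with a median of 98.28. Pdha1, the E1 alpha subunit, had a peak in all 14 lists and a median of 90.9, from 52.99 in ZR_DMSO replicate 2 to 98.46 in ZR replicate 2. Dlat, the E2 acetyltransferase, was lower, with a peak in 12 deposited lists and 5 equal-length lists and a median of 63.48.

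Among the citrate and isocitrate genes, Cs (citrate synthase), Aco1 (cytosolic aconitase), Idh1 (cytosolic NADP-dependent isocitrate dehydrogenase) and Idh3a (catalytic subunit of the mitochondrial NAD-dependent enzyme) were open at a gene end in every one of the 14 lists. Their median percentiles were 87.8, 97.94, 95.58 and 84.38. Idh3g had one in 13 lists and was without one in ZR_GSK343 replicate 1. Idh3b had one in 12 deposited lists, with a median of 48.89, and in 2 at equal length. Idh2, the mitochondrial NADP-dependent enzyme, had no peak within 1 kb of its gene edges in any list, but its promoter start lies 3258 bp inside the edge of the RefSeq gene. At that start, a peak was present in all 14 deposited lists, with folds of 13.3 and 17.5 in EV, 11.7 and 12.9 in ZR, 6.33 and 7.12 in ZR_DMSO, 6.61 and 19.1 in ZR_GSK343, 12.98 and 14.9 in ZR_dmCitra, 27.9 and 30.5 in DMSO_50K and 6.76 and 9.44 in Citraconate_50K. Fold enrichments are the authors' own values, given here as a description of each list and not compared between lists of different depth. The absence of Idh2 from the gene-end counts thus follows from the window.

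The 2-oxoglutarate dehydrogenase complex (Ogdh E1, Dlst E2, Dld E3) and the succinyl-CoA synthetase genes (Suclg1, Sucla2 and Suclg2) were mostly open outside the ZR_DMSO lists, with Dlst as the exception. Ogdh, Dld and Suclg1 had a gene-end peak in 12 equal-length lists, all but ZR_DMSO. Sucla2 had one in 13, and was without one in ZR_DMSO replicate 1, and Suclg2 in 13, without DMSO_50K replicate 2. Dlst had one in 2, both of ZR_GSK343, and in 12 lists as deposited.

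Succinate dehydrogenase oxidises succinate and passes the electrons to the respiratory chain. Its flavoprotein Sdha and membrane anchor Sdhc had a gene-end peak in all 14 equal-length lists, at median percentiles of 94.37 and 87.7. The iron-sulfur subunit Sdhb had one in 12 lists, without ZR_DMSO replicate 1 and ZR_GSK343 replicate 1. The anchor Sdhd had one in all 14 deposited lists but only 8 at equal length, with a median of 69.0.

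The fumarase gene Fh1 was the steadiest member. Its peak ranked between the 97.74 and 99.91 percentiles of every list, with folds of 66.9 and 73.01 in EV, 148 and 137 in ZR, 19.5 and 24.4 in ZR_DMSO, 15.5 and 41.3 in ZR_GSK343, 133 and 124 in ZR_dmCitra, 75.8 and 92.9 in DMSO_50K and 37.9 and 51.6 in Citraconate_50K. Mdh1 and Mdh2, the cytosolic and mitochondrial malate dehydrogenases, had a peak in all 14 lists with medians of 90.92 and 93.16.

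Of the glutamate, transaminase and malic enzyme genes, Glud1 (glutamate dehydrogenase), Got1 (cytosolic aspartate transaminase) and Me2 (mitochondrial NAD-dependent malic enzyme) had one in each of the 14 lists. Glud1 was at the 95.48 percentile or above in each. Got2 (mitochondrial aspartate transaminase), Gls2 (a glutaminase) and Gpt2 (mitochondrial alanine transaminase) had one in 12 equal-length lists, and Me3 (mitochondrial NADP-dependent malic enzyme) in none. Me3 had a low-ranking peak in 8 deposited lists, with folds of 5.05 and 5.29 in EV, 7.46 and 5.92 in ZR, 6.48 in ZR_GSK343 replicate 2 alone, 5.71 and 5.84 in ZR_dmCitra and 8.32 in DMSO_50K replicate 2 alone, with no peak in ZR_DMSO or Citraconate_50K.

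Of the carrier and citrate lyase genes, Acly encodes ATP citrate lyase, an enzyme and not a carrier, which makes cytosolic acetyl-CoA. It had a gene-end peak in each of the 14 lists, with a median percentile of 81. Slc25a11 (2-oxoglutarate carrier) had one in 6 equal-length and 12 deposited lists. Slc25a1 (mitochondrial citrate carrier) had one in 1 equal-length list, ZR_GSK343 replicate 2, and in 12 as deposited. Slc25a10 (dicarboxylate carrier) had none in any of the 14 deposited lists.

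**Figure D2:**
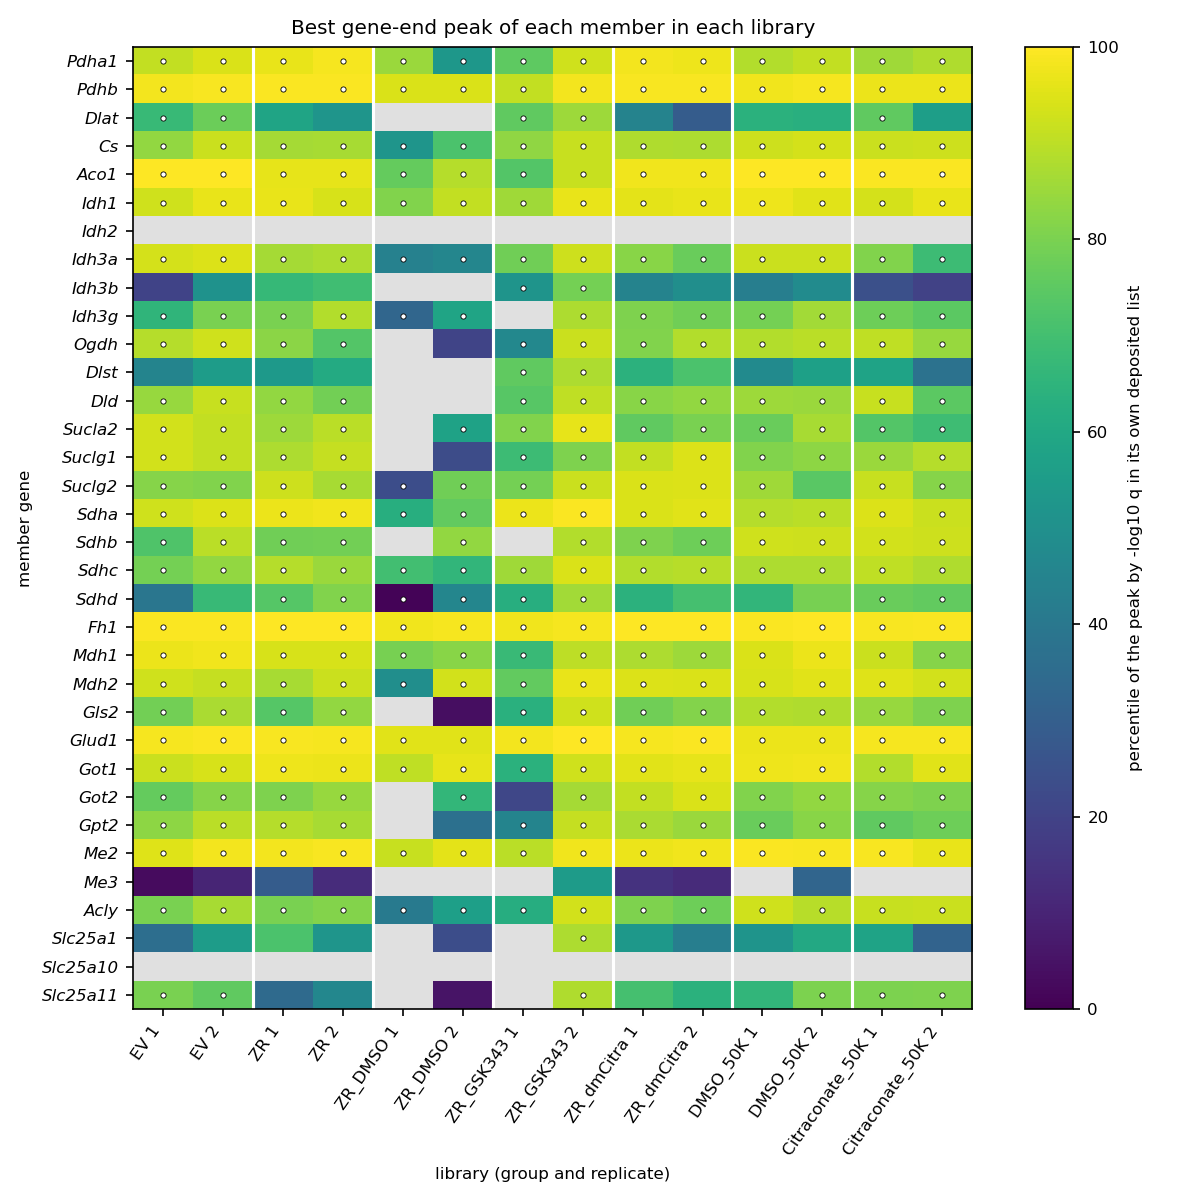
Percentile of the best gene-end peak of each member (rows, grouped by role) in each library (columns), from 0 to 100 within that library's deposited list. Grey marks no peak and white dots mark peaks kept at equal length, so the grey cells gather in the ZR_DMSO columns and in the rows of Idh2, Me3 and Slc25a10.

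For the comparisons, the 4 lists of each were shortened to the length of the shortest, and a member was gained where both libraries of the first group and neither of the second had a gene-end peak, or lost in the opposite case. No test was applied, because the smallest two-sided exact permutation p with 2 libraries against 2 is 0.333. Each share is read against the share of all protein-coding genes called by the same rule.

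Between ZR and EV cells, at 34989 peaks, no member's gene-end peak was gained or lost. The counts were 0 gained and 0 lost of 32 members with a gene-end peak in any of the 4 lists, against 3.11% and 6.81% of all genes with one, and 31 of the 32 had a peak in all 4. The exception was Me3, at the foot of the lists. No library left out gave a gained or lost member, at 34989 peaks or, without EV replicate 1, at 43458. With these lists shortened to 12390 peaks, the shortest length of all 14, 1 of 28 members was gained, Sdhd (3.57%, against 3.44% of all genes), and 2 were lost, Dlat and Slc25a11 (7.14%, against 13.3%), so the count of 0 holds for the longer lists. Of the 38 linked pathway genes (Pcx, the pyruvate dehydrogenase kinases, the pyruvate carriers, glycolytic genes and others), 33 had a gene-end peak in at least 1 of the 4 lists at 34989 peaks. Of these, 1 was gained, Acod1 (3.03%, against 3.11% of all genes), and 0 were lost, against 6.81%.

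Between ZR_GSK343 and ZR_DMSO, at 12390 peaks, 8 of 31 members were gained (25.8%), near the 20.9% of all genes, and 0 were lost, against 0.393%. The 8 were Dlat, Idh3b, Ogdh, Dlst, Dld, Suclg1, Gls2 and Gpt2. Between ZR_dmCitra and ZR_DMSO, also at 12390 peaks, 5 of 26 members were gained (19.2%, against 12.3% of all genes), and 1 was lost (3.85%, against 1.55%). The 5 were Ogdh, Dld, Suclg1, Gls2 and Gpt2, each also gained with GSK343, and the lost one was Sdhd. The 2 comparisons share the ZR_DMSO libraries. Without ZR_DMSO replicate 1, 5 members were gained with GSK343 (against 22.4% of genes) and 2 with citraconate (against 18.5%). Leaving out that library, the shortest list, also lengthened the lists, to 19239 peaks for GSK343 and 20881 for citraconate. Library and list length thus changed together there. Without ZR_DMSO replicate 2, at 12390 peaks, 9 and 8 were gained (against 30.5% and 23%). In the lists as deposited, the members gained were Dlat, Dld, Dlst and Idh3b with GSK343 (against 17.4% of genes), and the same 4 with Me3 in ZR_dmCitra (against 27.9%), so that Dld is the member called in both comparisons either way.

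With ZR in place of ZR_DMSO, the shortest of the 4 lists was longer, at 19239 peaks for GSK343 and 44033 for citraconate, so that control and list length changed together. At these lengths 0 members were gained and 0 lost in either comparison, against 9.62% and 1.46% of genes for GSK343 and 1.06% and 1.15% for citraconate. At 12390 peaks, with ZR as the control, 3 of 31 members were gained with GSK343, Dlat, Dlst and Idh3b (9.68%, against 15.4% of genes), and 0 were lost, against 1.79%. In ZR_dmCitra against ZR at 12390 peaks, 0 of 26 members were gained (against 3.22%) and 1 was lost, Sdhd (3.85%, against 2.67%). The calls of Ogdh, Dld, Suclg1, Gls2 and Gpt2 were thus made only against ZR_DMSO, at either length, while those of Dlat, Dlst, Idh3b and Sdhd were made against both controls at 12390 peaks.

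The deposited fold enrichments of these genes were as follows. For Ogdh they were 25.3 and 33.3 in EV, 23.4 and 17.2 in ZR, 5.59 in ZR_DMSO replicate 2 alone, 6.22 and 23.2 in ZR_GSK343, 20.8 and 27.1 in ZR_dmCitra, 29.6 and 33.7 in DMSO_50K and 19.8 and 18.3 in Citraconate_50K. Dld gave 21.5 and 31.2 in EV, 24.5 and 20.4 in ZR, 8.55 and 21.1 in ZR_GSK343, 21.3 and 22.3 in ZR_dmCitra, 26.2 and 28.2 in DMSO_50K and 20.8 and 13.9 in Citraconate_50K, with no peak in ZR_DMSO. For Suclg1 the values were 31.6 and 30.2 in EV, 28.8 and 33.3 in ZR, 5.59 in ZR_DMSO replicate 2 alone, 7.77 and 12.6 in ZR_GSK343, 30.6 and 38.7 in ZR_dmCitra, 22.9 and 26.4 in DMSO_50K and 16.1 and 21.1 in Citraconate_50K. In these 3 genes, ZR_DMSO was the only group with no peak or only 1 list with a peak.

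Gls2 had folds of 17.7 and 25.4 in EV, 17.6 and 24.2 in ZR, 5.08 in ZR_DMSO replicate 2 alone, 7.38 and 24.5 in ZR_GSK343, 18.7 and 20.7 in ZR_dmCitra, 29.6 and 31.9 in DMSO_50K and 16.1 and 16.1 in Citraconate_50K. In ZR_dmCitra replicate 1 its best peak lay at the opposite gene edge (chr10:128210960-128212095) from that of replicate 2, so the 2 peaks behind that call do not overlap. Gpt2 had folds of 20.2 and 28.04 in EV, 30.4 and 27.4 in ZR, 6.10 in ZR_DMSO replicate 2 alone, 6.22 and 22.2 in ZR_GSK343, 25.95 and 23.3 in ZR_dmCitra, 20.6 and 25.4 in DMSO_50K and 12.5 and 14.99 in Citraconate_50K. The peaks of both genes in ZR_DMSO replicate 2 fell beyond the first 12390 of its list.

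Dlat, Dlst and Idh3b were called gained with GSK343 and not in ZR_dmCitra. For Dlst the folds were 8.84 and 10.1 in EV, 11.2 and 12.9 in ZR, 8.55 and 18.1 in ZR_GSK343, 12.98 and 15.4 in ZR_dmCitra, 11.2 and 13.4 in DMSO_50K and 8.84 and 7.22 in Citraconate_50K, with no peak in ZR_DMSO, and for Dlat they were 13.3 and 17.5 in EV, 12.2 and 10.8 in ZR, 8.55 and 16.02 in ZR_GSK343, 8.82 and 6.90 in ZR_dmCitra, 15.1 and 15.3 in DMSO_50K and 12.5 and 9.44 in Citraconate_50K, with no peak in ZR_DMSO. The Idh3b values were 6.32 and 9.52 in EV, 14.9 and 15.6 in ZR, 6.61 and 11.9 in ZR_GSK343, 8.82 and 9.55 in ZR_dmCitra, 10.04 and 11.1 in DMSO_50K and 5.72 and 6.11 in Citraconate_50K, with no peak in ZR_DMSO. None of these 3 genes had a peak in either deposited ZR_DMSO list, and all had one in both deposited lists of the other 6 groups. Each reached the first 12390 peaks in both ZR_GSK343 lists but in neither ZR_dmCitra list.

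The Sdhd call in the citraconate comparison rested on list order. Its folds were 8.21 and 13.2 in EV, 17.6 and 22.1 in ZR, 4.75 and 6.61 in ZR_DMSO, 7.38 and 16.7 in ZR_GSK343, 12.98 and 14.9 in ZR_dmCitra, 15.6 and 23.6 in DMSO_50K and 13 and 14.4 in Citraconate_50K, so that a peak was deposited in all 14 lists, and in ZR_dmCitra it fell beyond the first 12390. In ZR_DMSO replicate 2 the peak lay among 2221 peaks tied at that boundary, and with the tied peaks left out Sdhd was not called. Without ZR_DMSO replicate 1, the lists were 20881 peaks long, and the member lost was Slc25a1 and not Sdhd. The Sdhd peaks of ZR_dmCitra, at ranks 16322 and 12974, lie within that length, so library and list length changed together. The Sdhd gene end is shared within 2 kb with those of Timm8b and Nkapd1. In all, 17 of the 34 members have the end of another protein-coding gene within 2 kb, so that a peak there cannot be given to one gene alone.

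Between Citraconate_50K and DMSO_50K, at 29432 peaks, 1 of 31 members was gained (3.23%, against 7.22% of all genes), and 0 were lost, against 1.46%. At 12390 peaks, 1 of 28 was gained (3.57%, against 19.4%), Sdhd in place of Idh3b, and 0 were lost, against 1.18%. At 29432 peaks the gained member was Idh3b, which had a peak in all 4 deposited lists, with folds of 5.72 and 6.11 in Citraconate_50K and 10.0 and 11.1 in DMSO_50K. The call was absent without Citraconate_50K replicate 2, where the lists were longer at 31702 peaks. Of the members, 30 of 31 had a peak in all 4 lists. The linked genes gave 1 gained (Ogdhl) and 1 lost (Acod1) of 32 in this comparison at 29432 peaks (3.12% each, against 7.22% and 1.46% of all genes). With GSK343, 5 of 29 were gained (Acaca, Pdk1, Pdk2, Ogdhl and Slc25a12), or 17.2% against 20.9% of all genes, and 0 lost, against 0.393%. In ZR_dmCitra, 3 of 24 were gained (Pdk1, Pdk3 and Slc25a12), or 12.5% against 12.3%, and 0 lost, against 1.55%. Both gained shares were near or below those of all genes.

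**Figure D3:**
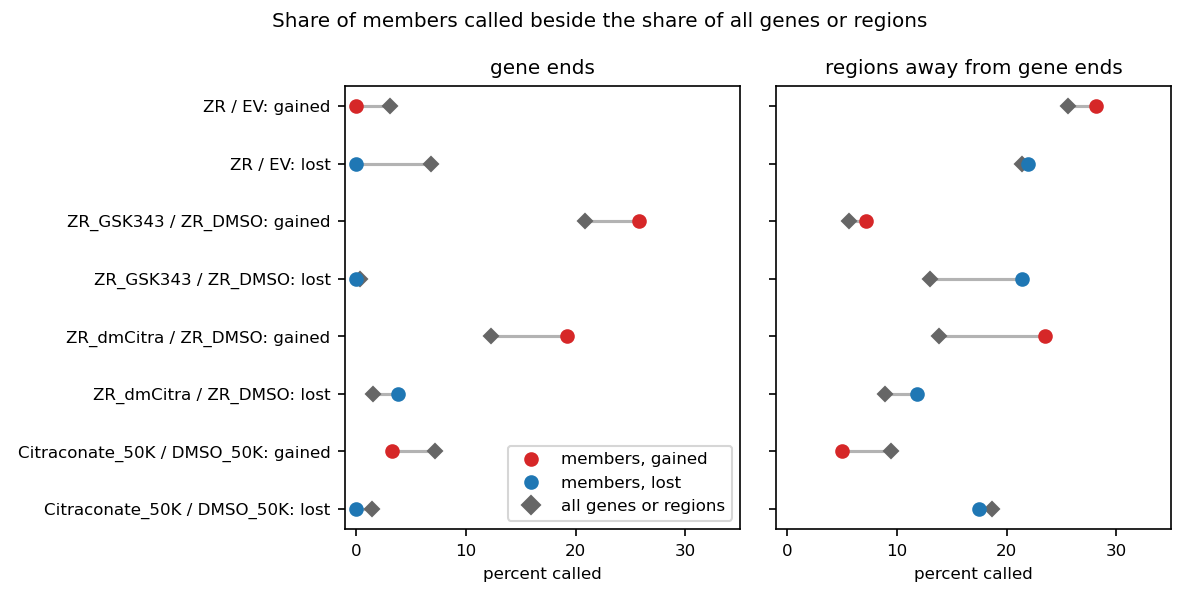
Percent of members, or of regions near members, called gained (red) or lost (blue) in each comparison, with grey diamonds for all protein-coding genes or all regions near them. At gene ends, the largest member share is 25.8%, in ZR_GSK343 against ZR_DMSO, where the background is 20.9%.

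Because presence of a peak says little for genes open in every list, the members were also ranked among the 4476 genes with a gene-end peak in all 14 deposited lists, 17 of which are members. In each library the best peaks of these 4476 genes were ordered, and a shift is the difference between group means in percentile points, described where it reached 20 points and the 4 libraries did not overlap. This measure was chosen after the data were seen.

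For ZR against EV, Pdha1, Sdha and Got1 stood higher by 26.3, 21.1 and 22.5 points, and Aco1, Idh3a and Mdh1 lower, with differences of −30.1, −33.4 and −27.2 points. That is 3 up and 3 down of 17, against 14.9% and 14.7% of the 4476 genes. Aco1 stood at 98.3 and 98.6 in EV, 68.8 and 67.9 in ZR, 60.7 and 68.0 in ZR_DMSO, 30.7 and 24.6 in ZR_GSK343, 80.6 and 81.5 in ZR_dmCitra, 98.6 and 96.5 in DMSO_50K and 97.8 and 97.9 in Citraconate_50K. It lies on chromosome 4, where the median difference over 106 such genes was −28.7 points, so that the difference for Aco1 was near that of its chromosome. Idh3a stood at 60.0 and 59.3 in EV, 24.5 and 28.1 in ZR, 28.5 and 12.9 in ZR_DMSO, 43.0 and 29.2 in ZR_GSK343, 17.0 and 9.3 in ZR_dmCitra, 47.0 and 44.2 in DMSO_50K and 18.7 and 5.9 in Citraconate_50K.

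For ZR_GSK343 against ZR_DMSO, Sdha stood higher by 48.7 points, and Aco1, Mdh1 and Got1 lower, with differences of −36.7, −40.5 and −62.2 points (1 up and 3 down, against 19.5% and 18.8% of genes). Against ZR the differences were 15.8 for Sdha, −40.8 for Aco1, −33.3 for Mdh1 and −51.0 for Got1. For ZR_dmCitra against ZR_DMSO, Pdha1 and Suclg2 stood higher by 32.4 and 25.8 points, and Mdh1 and Got1 lower, at −36.1 and −22.0 (against 11.4% and 11.1%). With ZR as the control, the Pdha1 difference was 0.7 and the Got1 difference −10.7, while Mdh1 remained at −28.9 and Suclg2 at 20.3. For Citraconate_50K against DMSO_50K, Sdha stood higher by 25.4, and Idh3a, Mdh1 and Got1 lower, at −33.2, −30.2 and −22.3 (against 10.8% and 11.1%). Of the 17 members, more were lower in Citraconate_50K than this share of genes. The other numbers up and down, in all 4 comparisons, were near or below the gene shares. The shifts are thus given member by member and not as a result about the set.

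Mdh1, with a gene end within 2 kb of that of Wdpcp, is the member that was lower in all 4 comparisons. Its rank percentiles were 80.0 and 81.2 in EV, 52.8 and 53.9 in ZR, 65.9 and 55.2 in ZR_DMSO, 24.7 and 15.5 in ZR_GSK343, 27.8 and 21.2 in ZR_dmCitra, 58.2 and 74.8 in DMSO_50K and 52.4 and 20.1 in Citraconate_50K. The EV libraries were the highest and the ZR_GSK343 and ZR_dmCitra libraries, with Citraconate_50K replicate 2, the lowest. The GSK343 and citraconate comparisons share the ZR_DMSO libraries, and no test of their overlap was made. The share of the 4476 genes lower in all 4 comparisons was not counted, and 11.1% to 18.8% were lower in each one. In Citraconate_50K the Mdh1 difference rested on replicate 2, and was −14.1 points without it and −46.4 without replicate 1.

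Got1 and Sdha moved in opposite directions with GSK343. Got1 stood at 51.4 and 54.6 in EV, 76.7 and 74.4 in ZR, 83.7 and 89.9 in ZR_DMSO, 18.8 and 30.4 in ZR_GSK343, 62.1 and 67.5 in ZR_dmCitra, 77.4 and 77.9 in DMSO_50K and 37.4 and 73.3 in Citraconate_50K. Sdha stood at 55.4 and 58.4 in EV, 74.4 and 81.6 in ZR, 46.3 and 43.9 in ZR_DMSO, 95.1 and 92.5 in ZR_GSK343, 54.6 and 64.1 in ZR_dmCitra, 35.7 and 35.2 in DMSO_50K and 67.2 and 54.5 in Citraconate_50K. The ZR_GSK343 libraries were the lowest 2 of 14 for Got1 and the highest 2 for Sdha, whose gene end is shared with that of Ccdc127. Pdha1 ranks were 47.5 and 57.3 in EV, 71.7 and 85.6 in ZR, 74.6 and 19.1 in ZR_DMSO, 36.8 and 31.5 in ZR_GSK343, 81.8 and 76.8 in ZR_dmCitra, 34.1 and 39.5 in DMSO_50K and 28.8 and 38.3 in Citraconate_50K, with the lowest of the 14 values in ZR_DMSO replicate 2 and a value near those of ZR and ZR_dmCitra in replicate 1. The citraconate difference for Pdha1 thus rests on replicate 2 of the control, and was 4.7 points without it and 60.2 without replicate 1. Suclg2 ranks were 21.3 and 11.7 in EV, 45.0 and 25.9 in ZR, 10.5 and 49.6 in ZR_DMSO, 43.0 and 26.1 in ZR_GSK343, 54.6 and 56.9 in ZR_dmCitra, 27.2 and 7.7 in DMSO_50K and 50.2 and 20.1 in Citraconate_50K, and its citraconate difference rests on ZR_DMSO replicate 1, being 6.1 points without that library and 45.2 without replicate 2. Against ZR, the Suclg2 difference was 10.8 points without ZR replicate 2. The Got1 difference in Citraconate_50K was −4.4 points without replicate 1 and −40.3 without replicate 2.

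**Figure D4:**
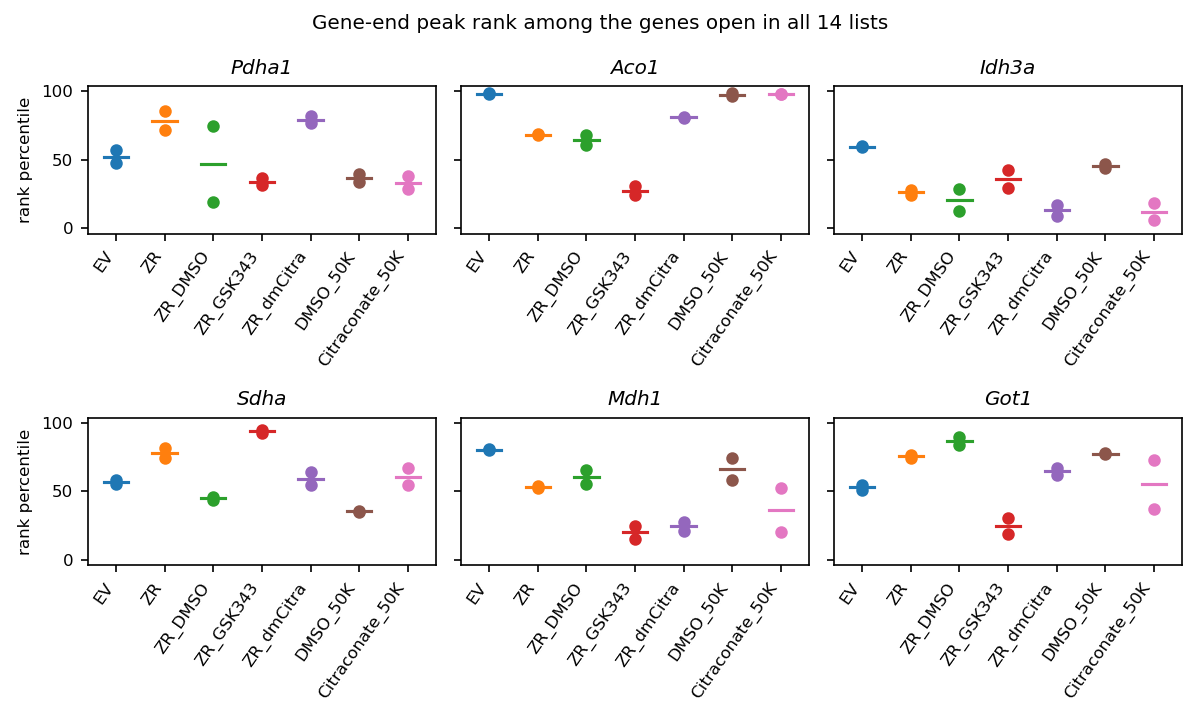
Rank percentile of the gene-end peak among the 4476 genes open in all 14 lists, for 6 members, with a point per library and a line at the mean of each group of 2. Got1 is lowest and Sdha highest in the ZR_GSK343 libraries, and Mdh1 is at 80.0 and 81.2 in EV and at 24.7 and 15.5 in ZR_GSK343.

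Away from gene ends, peaks near members were few at equal length. Their number was 7 and 8 in EV (7.1 and 7.95 kb covered), 9 and 11 in ZR (9.54 and 9.89 kb), 11 and 8 in ZR_DMSO (2.26 and 2.31 kb), 5 and 6 in ZR_GSK343 (3.2 and 5.79 kb), 9 and 8 in ZR_dmCitra (8.66 and 8.1 kb), 11 and 13 in DMSO_50K (11.72 and 15.78 kb), and 8 and 6 in Citraconate_50K (6.43 and 4.4 kb). The ZR_DMSO lists held as many peaks as the others but covered the least sequence, with narrower peaks.

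Between ZR and EV, 64 regions lay near 26 members, of which 18 were gained (28.1%) and 14 lost (21.9%), against 25.6% and 21.4% of all 32624 regions near protein-coding genes. Both shares were near the background. The gained regions lay near 14 members and the lost ones near 9, with Suclg2, Me3 and Gpt2 having both. Of the 18 gained regions 8 were inside the gene body and 12 were also within reach of another protein-coding gene, and of the 14 lost ones 7 and 5. Without EV replicate 1, where the lists were longer at 43458 peaks, 23 regions were lost, against 33% of all regions. At 12390 peaks, 6 regions were gained and 4 lost, against 30.3% and 20.9% of all regions.

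Suclg2, the GTP-forming succinyl-CoA synthetase beta subunit, spans 245.8 kb on the minus strand of chromosome 6 (95473009 to 95718858). It had 4 lost regions and 1 gained. The gained region, chr6:95510651-95512002, lies 207.5 kb into the gene, with folds of 25.03 and 32.3 in ZR, 6.33 and 9.66 in ZR_DMSO, 12.98 and 12.7 in ZR_dmCitra, 29 and 31.4 in DMSO_50K and 5.20 in Citraconate_50K replicate 1 alone, with no peak in EV or ZR_GSK343. The 4 lost regions lay 121.5, 124.4, 235.6 and 249.1 kb from the start, with EV folds of 7.58 and 10.1, 9.47 and 7.94, 5.68 and 6.88, and 14.5 and 19.05. None of the 4 had a peak in any of the 12 other deposited lists.

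Me3 spans 222.1 kb on the plus strand of chromosome 7 (89632284 to 89854359) and had 2 gained and 3 lost regions. The gained region at chr7:89664139-89665246, 32.4 kb from the start, had folds of 19.7 and 21.5 in ZR, 6.10 in ZR_DMSO replicate 2 alone, 5.44 and 8.18 in ZR_GSK343, 17.6 and 24.4 in ZR_dmCitra, 11.2 and 14.3 in DMSO_50K and 7.80 and 9.44 in Citraconate_50K, with no peak in EV. The second, chr7:89809299-89809773, at 177.3 kb, had folds of 9.59 and 7.53 in ZR, 8.13 in ZR_DMSO replicate 2 alone, 6.23 and 7.96 in ZR_dmCitra and 20.1 and 28.2 in DMSO_50K, with no peak in EV, ZR_GSK343 or Citraconate_50K. The lost regions, 67.7, 134.7 and 141.7 kb from the start, had EV folds of 8.21 and 10.1, 16.4 and 13.2, and 10.7 and 16.9. The last of them also had a peak in both DMSO_50K lists (8.37 and 10.2) and the others in no other list. Me3 thus had peaks within its body in most deposited lists, while its gene-end peak was in 8 deposited lists and in none at equal length.

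**Figure D5:**
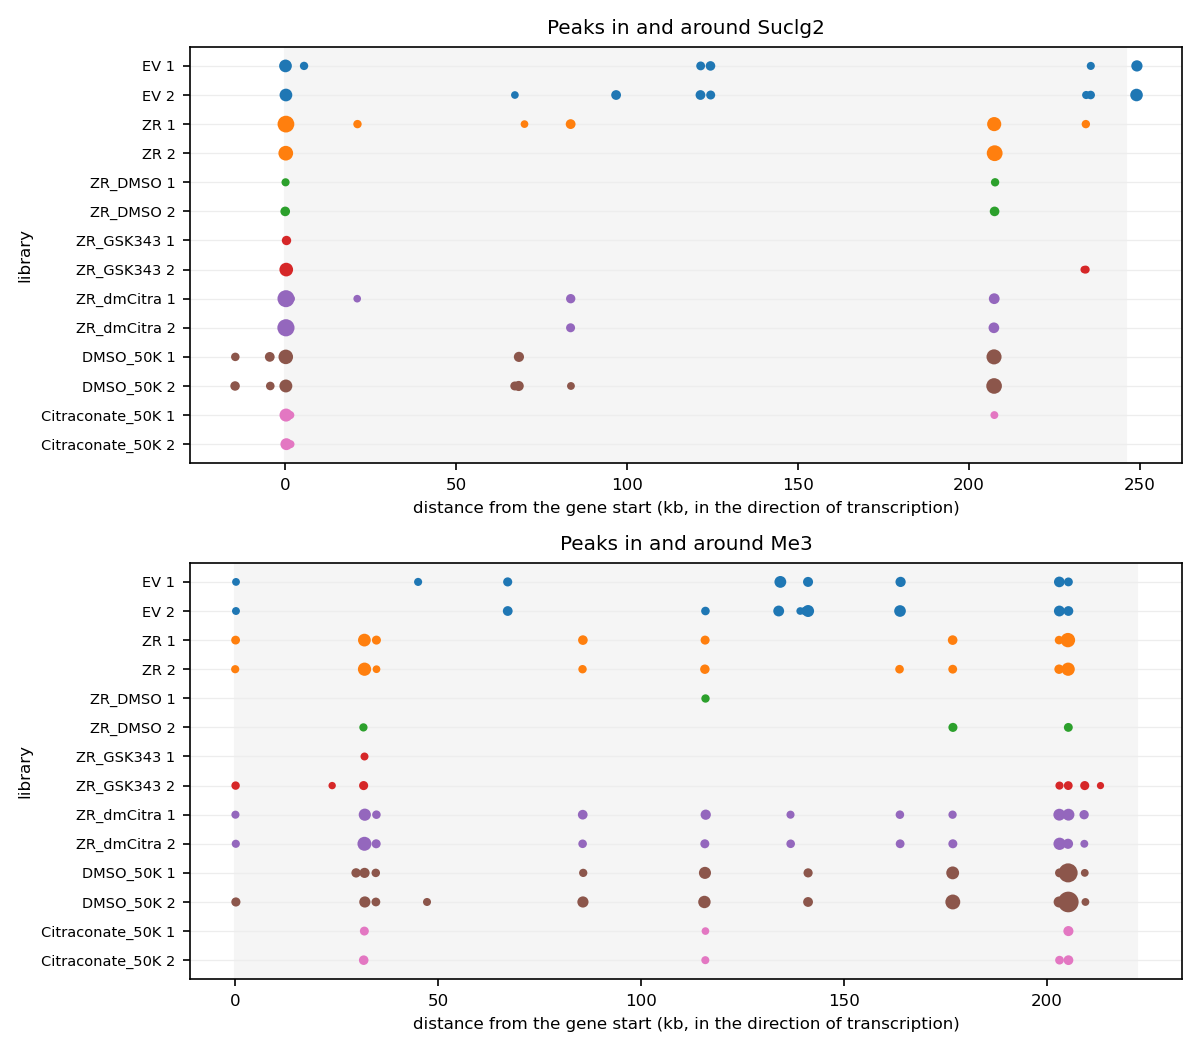
Deposited peaks of each library along Suclg2 and Me3 by distance from the gene start in kb, with the gene body shaded and the area of a point growing with the deposited fold enrichment. In Suclg2 the peak at 207.5 kb is in the ZR, ZR_DMSO, ZR_dmCitra and DMSO_50K lists and absent from the EV and ZR_GSK343 lists.

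Me2 had 3 gained regions and no lost one. The region inside the gene had folds of 13.8 and 8.61 in ZR, 6.86 and 9.15 in ZR_DMSO, 16.6 and 11.7 in ZR_dmCitra and 12.3 and 14.8 in DMSO_50K, with no peak in EV, ZR_GSK343 or Citraconate_50K. The region 12545 bp outside it had folds of 19.2 and 13.4 in ZR, 5.59 in ZR_DMSO replicate 2 alone, 7.501 in ZR_GSK343 replicate 2 alone, 19.7 and 15.9 in ZR_dmCitra, 10.6 and 12.9 in DMSO_50K and 8.32 and 10.6 in Citraconate_50K, with no peak in EV, and the one 14569 bp outside had 19.7 and 24.7 in ZR, 29.6 and 21.2 in ZR_dmCitra, 30.1 and 31.9 in DMSO_50K and 11.96 and 12.8 in Citraconate_50K, with no peak in EV, ZR_DMSO or ZR_GSK343. All 3 were without a peak in either EV list.

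The region gained near Fh1, chr1:175640167-175641089, lies 14532 bp outside the gene, upstream of its start and also near Kmo. Its folds were 27.2 and 30.1 in ZR, 15.3 and 14.7 in ZR_DMSO, 18.2 and 19.6 in ZR_dmCitra and 52.98 and 55.9 in DMSO_50K, with no peak in EV, ZR_GSK343 or Citraconate_50K. The Idh1 region, chr1:65171484-65172053, 14.7 kb into the gene, had folds of 13.3 and 21.5 in ZR, 6.33 and 5.59 in ZR_DMSO, 4.77 in ZR_GSK343 replicate 2 alone and 26.8 and 30.97 in DMSO_50K, with no peak in EV, ZR_dmCitra or Citraconate_50K. Both had a peak in the ZR, ZR_DMSO and DMSO_50K lists and none in the EV or Citraconate_50K lists.

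The other gained regions were near Sdhc, Mdh1, Dlst, Sdha, Glud1 (2 regions), Got1, Sdhb, Gpt2 and Sdhd. The one in Sdha, chr13:74341148-74341433, had folds of 10.1 and 12.4 in ZR and 9.86 and 10.1 in ZR_dmCitra, with no peak in EV, ZR_DMSO, ZR_GSK343, DMSO_50K or Citraconate_50K. The one in Got1, chr19:43511647-43512373, had 13.3 and 16.1 in ZR, 10.6 in ZR_GSK343 replicate 2 alone, 11.4 and 11.7 in ZR_dmCitra, 16.7 and 13.9 in DMSO_50K and 7.80 and 6.66 in Citraconate_50K, with no peak in EV or ZR_DMSO. The one near Sdhb, chr4:140983416-140983837, had 9.05 and 18.8 in ZR, 9.55 in ZR_GSK343 replicate 2 alone, 11.9 and 12.2 in ZR_dmCitra, 26.8 and 33.3 in DMSO_50K and 14.04 and 13.3 in Citraconate_50K, with no peak in EV or ZR_DMSO. Peaks in the last 2 were thus found in all groups but EV and ZR_DMSO.

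The upstream Glud1 region, chr14:34297248-34297437, had folds of 15.98 and 10.8 in ZR and 12.5 in ZR_dmCitra replicate 1 alone, with no peak in EV, ZR_DMSO, ZR_GSK343, DMSO_50K or Citraconate_50K, and the intragenic one, chr14:34318194-34318422, had 8.52 and 8.61 in ZR and 5.02 and 7.86 in DMSO_50K, with no peak in EV, ZR_DMSO, ZR_GSK343, ZR_dmCitra or Citraconate_50K. Near Gpt2, chr8:85488503-85488897 had 8.52 and 10.2 in ZR, 11.9 and 11.1 in ZR_dmCitra, 12.3 and 20.3 in DMSO_50K and 7.22 in Citraconate_50K replicate 2 alone, with no peak in EV, ZR_DMSO or ZR_GSK343, and near Sdhd, chr9:50590851-50591383 had 11.2 and 12.4 in ZR, 9.21 in ZR_GSK343 replicate 2 alone, 13.5 and 12.2 in ZR_dmCitra, 24.5 and 25.4 in DMSO_50K and 9.88 and 5.55 in Citraconate_50K, with no peak in EV or ZR_DMSO. The 2 Glud1 regions were the narrowest of those gained, at 190 and 229 bp.

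Near Sdhc, chr1:171118360-171118787 had 5.82 in EV replicate 2 alone, 12.8 and 17.2 in ZR, 10.9 in ZR_GSK343 replicate 2 alone, 14.01 and 15.9 in ZR_dmCitra, 13.9 and 15.7 in DMSO_50K and 11.4 and 9.99 in Citraconate_50K, with no peak in ZR_DMSO. Near Mdh1, chr11:21581464-21581749 had 5.82 in EV replicate 2 alone, 7.46 and 9.68 in ZR, 4.58 in ZR_DMSO replicate 2 alone, 5.80 in ZR_GSK343 replicate 2 alone, 11.9 and 8.49 in ZR_dmCitra and 5.08 in DMSO_50K replicate 2 alone, with no peak in Citraconate_50K. Near Dlst, chr12:85094065-85094341 had 9.05 and 6.99 in ZR, 7.501 in ZR_GSK343 replicate 2 alone, 9.86 and 11.7 in ZR_dmCitra and 7.86 in DMSO_50K replicate 2 alone, with no peak in EV, ZR_DMSO or Citraconate_50K. For Sdhc and Mdh1, EV replicate 2 held a weak peak in its deposited list, so 16 of the 18 gained regions had no deposited EV peak. The call itself requires no EV peak at 34989 peaks, and the share over all 8360 gained regions near genes was not counted.

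The remaining lost regions lay near Pdhb, Dld, Gpt2, Idh2, Idh3g, Gls2 and Slc25a1. The highest EV folds among these were in Gpt2 (chr8:85500747-85501761), at 18.3 and 16.9, with no peak in any other list. EV folds were 12 and 8.99 near Idh2, 8.84 and 9.52 near Pdhb, 8.21 and 8.99 near Dld, and 6.32 and 10.6 near Idh3g, again with no peak elsewhere. The region near Gls2 had 5.68 and 8.99 in EV, 14.7 in ZR_GSK343 replicate 2 alone, 7.25 and 7.86 in DMSO_50K and 4.68 in Citraconate_50K replicate 1 alone, with no peak in ZR, ZR_DMSO or ZR_dmCitra, and the one near Slc25a1 had 8.21 and 6.35 in EV, 5.92 in ZR replicate 2 alone and 5.80 in ZR_GSK343 replicate 2 alone, with no peak in ZR_DMSO, ZR_dmCitra, DMSO_50K or Citraconate_50K. In all, 11 of the 14 lost regions had a deposited peak in the EV lists only. The call itself requires a peak in both EV lists and none in the ZR lists at 34989 peaks. The share over all 6997 lost regions near genes was not counted.

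The 18 gained regions were looked up in the other deposited lists. A peak was present at 14 and 16 of them in DMSO_50K, 16 and 15 in ZR_dmCitra, 4 and 8 in ZR_DMSO, 1 and 9 in ZR_GSK343, and 8 and 8 in Citraconate_50K. The shares were near those of all 8360 gained regions near protein-coding genes, such as 77.8% and 88.9% against 79.5% and 85.2% in DMSO_50K, and 44.4% and 44.4% against 48% and 45.3% in Citraconate_50K. The DMSO_50K lists had a peak at 2 and 2 of the 14 lost regions.

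Between ZR_GSK343 and ZR_DMSO, 14 regions lay near members, of which 3 were lost (21.4%, against 13% of all regions) and 1 gained (7.14%, against 5.67%). The lost regions were those described above upstream of Fh1, in Me2 and in Suclg2. Each was gained in ZR over EV and had no peak in either deposited ZR_GSK343 list. Those lists, of 19513 and 57634 peaks, held a peak at 7.57% and 58.7% of all 8360 regions gained in ZR over EV. Replicate 2 held 45 peaks near members away from gene ends. The share of all regions lost with GSK343 that had been gained in ZR over EV was not counted. The gained region, near Slc25a1 at chr16:17921703-17922541, had folds of 19.6 and 25.4 in EV, 12.2 and 15.6 in ZR, 6.10 in ZR_DMSO replicate 2 alone, 7.77 and 14.3 in ZR_GSK343, 11.4 and 14.9 in ZR_dmCitra, 18.4 and 16.2 in DMSO_50K and 20.3 and 13.3 in Citraconate_50K, and only ZR_DMSO replicate 1 was without a peak. Without ZR_DMSO replicate 1, where the lists were longer at 19239 peaks, 8 regions were lost and 0 gained (against 24.1% and 7.14% of all regions). Without ZR_DMSO replicate 2, 6 were lost (against 33.6%), and without ZR_GSK343 replicate 1, 2 were gained (against 15.9%). With ZR as control, at 19239 peaks, 7 of 23 regions were lost (30.4%, against 19.3%) and 0 gained (against 5.38%).

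Between ZR_dmCitra and ZR_DMSO, 4 of 17 regions were gained (23.5%, against 13.8%) and 2 lost (11.8%, against 8.9%). The gained ones were the 2 outside Me2, the one 32.4 kb into Me3, and chr7:89835522-89836236 at 203.6 kb into Me3, with folds of 12.6 and 13.2 in EV, 6.92 and 9.14 in ZR, 5.80 in ZR_GSK343 replicate 2 alone, 16.6 and 18.04 in ZR_dmCitra, 7.81 and 13.9 in DMSO_50K and 7.22 in Citraconate_50K replicate 2 alone, with no peak in ZR_DMSO. The lost ones were the Suclg2 region and the Idh2 start, both of which had a deposited peak in both ZR_dmCitra lists. The folds there were 13.0 and 12.7 for Suclg2 and 13.0 and 14.9 for Idh2, and in each case the peak fell beyond the first 12390. Without ZR_DMSO replicate 1, where the lists were longer at 20881 peaks, 7 regions were gained (against 24.2% of all regions). Without ZR_DMSO replicate 2, 6 were lost (against 27.4%). With ZR as control, at 44033 peaks, 5 of 70 regions were gained (7.14%, against 5.39%) and 3 lost (4.29%, against 6.09%).

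Between Citraconate_50K and DMSO_50K, 7 of 40 regions were lost (17.5%, against 18.7%) and 2 gained (5%, against 9.45%). The lost regions lay near Fh1, in Idh1, in Me3 at 177.3 kb, in and near Me2 (2 regions), in Mdh1 and in Got2. The Fh1, Idh1 and Me3 regions and the intragenic Me2 region were also gained in ZR over EV and had no peak in either Citraconate_50K list. The share of all lost regions for which this held was not counted. The Citraconate_50K lists held a peak at 48% and 45.3% of all 8360 regions gained in ZR over EV. The Mdh1 region, chr11:21569375-21570577, 2.0 kb into the gene, had folds of 8.84 and 12.2 in EV, 10.1 and 9.68 in ZR and 17.8 and 25.9 in DMSO_50K, with no peak in ZR_DMSO, ZR_GSK343, ZR_dmCitra or Citraconate_50K. The Got2 region, chr8:95878454-95879200, had 7.58 and 12.2 in EV, 7.99 and 6.99 in ZR, 5.46 in ZR_GSK343 replicate 2 alone, 8.82 and 13.3 in ZR_dmCitra and 13.4 and 17.1 in DMSO_50K, with no peak in ZR_DMSO or Citraconate_50K. The second Me2 region, 19617 bp outside the gene, had a peak in no list but DMSO_50K (17.8 and 16.6).

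The 2 regions gained in Citraconate_50K were weak. In Suclg2, 1.5 kb from the start, chr6:95717254-95717520 had 5.71 in ZR_dmCitra replicate 1 alone and 5.72 and 5.55 in Citraconate_50K, with no peak in EV, ZR, ZR_DMSO, ZR_GSK343 or DMSO_50K. Near Got1, chr19:43530401-43530695 had 11.4 and 12.7 in EV, 12.2 and 10.2 in ZR, 9.89 in ZR_GSK343 replicate 2 alone, 13.5 and 10.1 in ZR_dmCitra, 6.13 and 10.2 in DMSO_50K and 7.28 and 6.11 in Citraconate_50K, with no peak in ZR_DMSO, with a peak in both deposited DMSO_50K lists. Without Citraconate_50K replicate 1, 4 regions were gained, against 24.7% of all regions. Without replicate 2, where the lists were longer at 31702 peaks, 9 were gained and 12 lost, against 25.8% and 25.2%. In this comparison the labelled cell line changed with the treatment, and the 2 citraconate comparisons differ in control, series and list length, so their counts are side by side and not compared.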

How the data were processed

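ATAC-seq libraries of mouse neural stem cells were sequenced as paired reads, per the labels' protocols. The submitters' processing notes name BWA, SAMtools, Picard and the mm10 build, with no versions. The authors called peaks in each library separately, with MACS2 going by the names that the deposited peaks carry (version, settings and any Tn5 shift: not given in the sources used here). The deposited columns are a score, a fold enrichment or ratio, and −log10 values of the p-value and q-value, all computed by the authors and used here to rank or describe peaks inside one list. Without read counts in these files, library depth is not known and no interval for counting error was possible.

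Only peaks on the autosomes, X and Y were used. Gene positions and promoters came from RefSeq (GRCm38.p6). Lists were shortened to equal length by −log10 q, ties being ordered by fold and then width, and overlap meant at least 1 bp. Members were called gained or lost at gene ends, and merged regions away from them, by presence in both libraries of one group and neither of the other. Every member is accounted for by role, and those with a call, or with no gene-end peak, are given with the value in each library. Alternatives tried were the unshortened lists, a minimum −log10 q of 5, windows of 500 bp and 2 kb, a flank of 10 kb, 50% coverage, ZR as control, ties at the boundary, and leaving out each library. The treatment of ties, the length of 12390 peaks for every comparison and the ranks among common genes were added after seeing the data. The members, gene lists and tests were chosen with earlier results of these data known. The calling code was tested on simulated lists. Python 3.11.15, pandas 2.3.3, NumPy 2.4.6 and matplotlib 3.10.9 were used.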

Additional observations from a re-analysis of the deposited data

Results flagged for a closer look

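One member moved in opposite directions in the 2 citraconate comparisons without overlap between the libraries of a comparison. The rank of the Cs gene-end peak among the common genes was 28.0 in ZR_dmCitra and 38.1 in ZR_DMSO, a difference of −10.1 points, and 54.6 in Citraconate_50K and 50.1 in DMSO_50K, a difference of 4.5 points. The difference between the comparisons was not tested, and both are under the 20 points used above.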

How the results depend on the processing

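Of 212 recomputed values, 148 stayed within 1.5 times the reported count or within 1 SD of a group mean, and 64 did not. With lists as deposited, GSK343 gained 4 members at gene ends and 0 regions, ZR_dmCitra lost 0 members, gained 25 regions and lost 1, and Citraconate_50K gained 0 members and lost 23 regions. Over all regions the shares moved too, from 13.8% to 37.8% gained in ZR_dmCitra and from 18.7% to 31.9% lost in Citraconate_50K. With −log10 q of at least 5 the same counts were 5 and 0, then 0, 26 and 1, then 0 and 23, and Citraconate_50K gained 1 region. Over all regions, 41.6% were then gained in ZR_dmCitra, and 36.5% lost and 1.17% gained in Citraconate_50K. Of all genes, 19.4% were then gained with GSK343. With 50% coverage, GSK343 gained 3 regions (against 8.94% of all regions), ZR_dmCitra lost 1 (against 6.84%) and Citraconate_50K lost 14 (against 29.1%). With a 10 kb flank, ZR lost 9 regions (against 21.6% of all regions) and ZR_dmCitra gained 2 (against 14.1%). With ties left out, ZR_dmCitra lost 0 members. With ZR as control and the longer lists this allows, GSK343 gained 0 members and 0 regions and lost 7, and ZR_dmCitra gained 0 and lost 0 members. With ZR as control at 12390 peaks, GSK343 gained 3 members and 2 regions and lost 5 regions, and ZR_dmCitra gained 0 members and 1 region. Over all regions, 6.83% were then gained and 26.8% lost with GSK343, and 8.34% gained in ZR_dmCitra. At 12390 peaks, ZR against EV gained 1 member and 6 regions and lost 2 members and 4 regions, and Citraconate_50K gained 1 region. These lengths were chosen after seeing the data.

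As deposited, the mean number of members with a gene-end peak was 32 in EV, 32 in ZR, 22.5 in ZR_DMSO, 32 in ZR_dmCitra, 31.5 in DMSO_50K and 31 in Citraconate_50K. Mean peaks near members away from gene ends were 39, 46.5, 14, 26 (ZR_GSK343), 50, 58.5 and 26.

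Where the library left out had the shortest list of its comparison, the lists became longer, so library and list length changed together. For ZR against EV, leaving out each library gave 19 to 24 gained regions (against 27.4% to 34.2% of all regions). It gave 15 to 23 lost ones (against 24.1% to 34%). For ZR_GSK343 it gave 5 to 10 gained members (against 22.4% to 32.4% of all genes) and 0 to 1 lost (against 0.6% to 2.51%). It gave 0 to 2 gained regions (against 7.14% to 18.7%) and 3 to 8 lost (against 16.9% to 33.6%). For ZR_dmCitra it gave 2 to 8 gained members (against 16.2% to 23%). It gave 4 to 7 gained regions (against 20.5% to 24.2%) and 2 to 6 lost (against 10.5% to 27.4%). For Citraconate_50K it gave 0 to 1 gained members (against 8.52% to 10.4%). It gave 3 to 9 gained regions (against 11.4% to 25.8%) and 8 to 12 lost (against 23.9% to 25.6%). No paired analysis was possible because the results are counts and differences from no test, and the replicate numbers mark no shared culture or day.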
